A study of Mus musculus with 4 samples.

Results

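The spliceosomal small nuclear ribonucleoprotein (snRNP) genes, the LSM genes and the SF3 genes were examined in the RNA-seq libraries of mouse fetal oocytes. Members were the protein-coding genes whose GENCODE symbol begins with Snrp, with Lsm and a digit, or with Sf3a or Sf3b and a digit, leaving out the imprinted gene Snrpn. This gave 33 genes of 55401 counted identifiers. Germ cells were sorted with an SSEA-1 antibody from the ovaries of E18.5 fetuses, and are called primordial germ cells in the labels. The ICR mothers had eaten either normal chow (ND) or fat-rich chow (HFD) for 4 months from 3 weeks of age and were then mated with males on normal chow. Each diet was represented by 2 samples, each a pool of oocytes from several fetuses amplified with SMART-Seq2 from polyA RNA, and no library was made from a single animal. Whether the 2 pools of a diet came from separate litters is not stated in the sources used here, so that p-values measure only the spread between these samples, which may be technical.

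Introns are removed from pre-mRNA by the spliceosome, which is assembled from snRNPs, each a small nuclear RNA with its proteins. The Sm proteins form a ring around the RNA of the U1, U2, U4 and U5 particles, the LSM2 to LSM8 proteins form the equivalent ring on U6, and SF3A and SF3B are the U2 subcomplexes that recognise the branch point. Related rings and proteins act outside splicing. LSM1 to LSM7 bind the 3′ ends of mRNAs that are to be decapped, LSM10 and LSM11 belong to the U7 particle that processes histone mRNA, and LSM14A and LSM14B bind untranslated mRNA in cytoplasmic granules. Oocytes in meiotic prophase store mRNA for later growth, and splicing genes are ordinarily active in nearly every cell.

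Total counts were 8223255 and 7815015 in ND replicates 1 and 2 and 6456825 and 5723605 in HFD replicates 1 and 2. A level is given as CPM, the reads on a gene divided by the library total and scaled to counts per 1e6, and 3 reads correspond to 0.365 to 0.524 CPM, which covers counting error only. A gene was taken as above background in a library when it exceeded 3 reads and a limit of 7.44 to 12.5 reads per kilobase of exon, set in each library at the 99th percentile of 1135 olfactory receptor genes. Of 10 germ cell markers, between 7 and 9 were above background in each library, and their summed level ran from 2188 to 4330 CPM. Stromal markers summed to 2846 and 69.4 CPM in the ND libraries and 2224 and 7706 CPM in the HFD libraries, and between 3 and 6 of 10 were above background. Blood markers summed to 1973 CPM in ND replicate 1 and to at most 10.8 CPM elsewhere. Pregranulosa markers summed to 19.8 to 2087 CPM, endothelial markers to 24.6 to 701 CPM and macrophage markers to 13.0 to 40.5 CPM, with HFD replicate 2 highest for the first and the last and HFD replicate 1 for the endothelial list. In pooled cells, fewer cells of a type and less RNA per cell cannot be told apart.

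A feature that the choice of members did not use is the sequence at their starts. RefSeq promoter windows on GRCm38.p6, each from 250 bases before to 50 bases after a gene's start, were used for 26 of the 33 members. The remaining members have no part in the shares below, and the windows of all genes may not have been selected alike. The letters CCGGAAG, the core recognised by ETS factors, were searched on both strands and stood in 11 of the 26, or 42.3%, against 13.4% of 16513 protein-coding genes with a window. The letters GGGCGG, the GC box of SP factors, stood in 18 members, 69.2% against 51.0%, and CCAAT in 10 members, 38.5% against 42.1%. TATAAA stood in 2 members, 7.7% against 14.3%. The median GC content was 59.5% over the member windows and 57.0% over all windows. The letters AAGATGG stood in 2 members, 7.7% against 7.3%, and GCATGCG in 3 members, 11.5% against 5.1%. A match describes letters and not a bound site. The match nearest to the start is printed for the 11 members with CCGGAAG, in capitals with 10 bases on either side, because these letters are the sequence that most separates the members from other promoters among the motifs searched.

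Sf3a3 (chr4:124714761-124714787, minus strand): tccgcgtgtcCCGGAAGtgtcttgggg
Snrpb2 (chr2:143063050-143063076, minus strand): gaaactaataCCGGAAGagcttccccg
Snrpe (chr1:133610261-133610287, plus strand): aaagcgacttCCGGAAGcaagacccgg
Snrpg (chr6:86371385-86371411, plus strand): ggcgacgcaaCCGGAAGcgtggctctg
Snrpc (chr17:27840038-27840064, plus strand): agggcagaggCCGGAAGcggaagtcct
Sf3a1 (chr11:4160337-4160363, plus strand): gagggcgggaCCGGAAGtgctcccgcg
Sf3a2 (chr10:80798649-80798675, plus strand): gcctttgctcCCGGAAGggatcgcttc
Sf3b2 (chr19:5295452-5295478, minus strand): gattacgcaaCCGGAAGtttctggaag
Sf3b3 (chr8:110847016-110847042, plus strand): cctcgcaagcCCGGAAGcgcccaccgg
Sf3b6 (chr12:4817528-4817554, plus strand): ggtccgcaatCCGGAAGcgttctggag
Lsm5 (chr6:56704666-56704692, plus strand): catggccacgCCGGAAGtggctaagga

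Of the 33 members, 24 reached 50 CPM in at least 1 library, and 16 of these did so in exactly 1 library. The level of these 16 genes was concentrated in a single pool of oocytes, which held 83.3% to 99.6% of the CPM summed over the libraries. ND replicate 2 alone carried Snrpb, Snrpd3, Snrpa1, Snrpc, Sf3b6 and Lsm6. HFD replicate 1 alone carried Sf3b1, Sf3b2, Sf3b4, Sf3b5, Lsm4 and Lsm5. ND replicate 1 alone carried Snrpf, Snrpa and Lsm3, and HFD replicate 2 alone carried Lsm7. Of the others, Snrpd2 and Sf3a3 reached 50 CPM in both ND libraries only, Snrpd1 and Lsm2 in both replicates 1, Sf3b3 in ND replicate 1 and HFD replicate 2, Snrpg in all but ND replicate 2, and Snrpe and Snrpb2 in all 4 libraries. Of the 33 members, 0 reached this level in both HFD libraries and in neither ND library, against 0.539% of all 21897 protein-coding genes. The reverse pattern, that of Snrpd2 and Sf3a3, was shown by 6.06% of the members and 0.571% of all protein-coding genes. These shares are over whole sets, in which 24 of 33 members and 3359 of 21897 protein-coding genes reached 50 CPM anywhere. Splits across the diets gave 6.06% against 1.01% for both replicates 1 alone. They gave 3.03% against 0.333% for ND replicate 1 with HFD replicate 2. For both replicates 2, and for ND replicate 2 with HFD replicate 1, they gave 0% against 0.183% and 0.393%. The 9 members that stayed under 50 CPM throughout were Sf3a1, Sf3a2, Lsm1, Lsm8, Lsm10, Lsm11, Lsm12, Lsm14a and Lsm14b, with a highest level of 24.1 CPM. The nearest member under the limit was Lsm4, at 49.4 CPM in ND replicate 2.

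**Figure D1:**
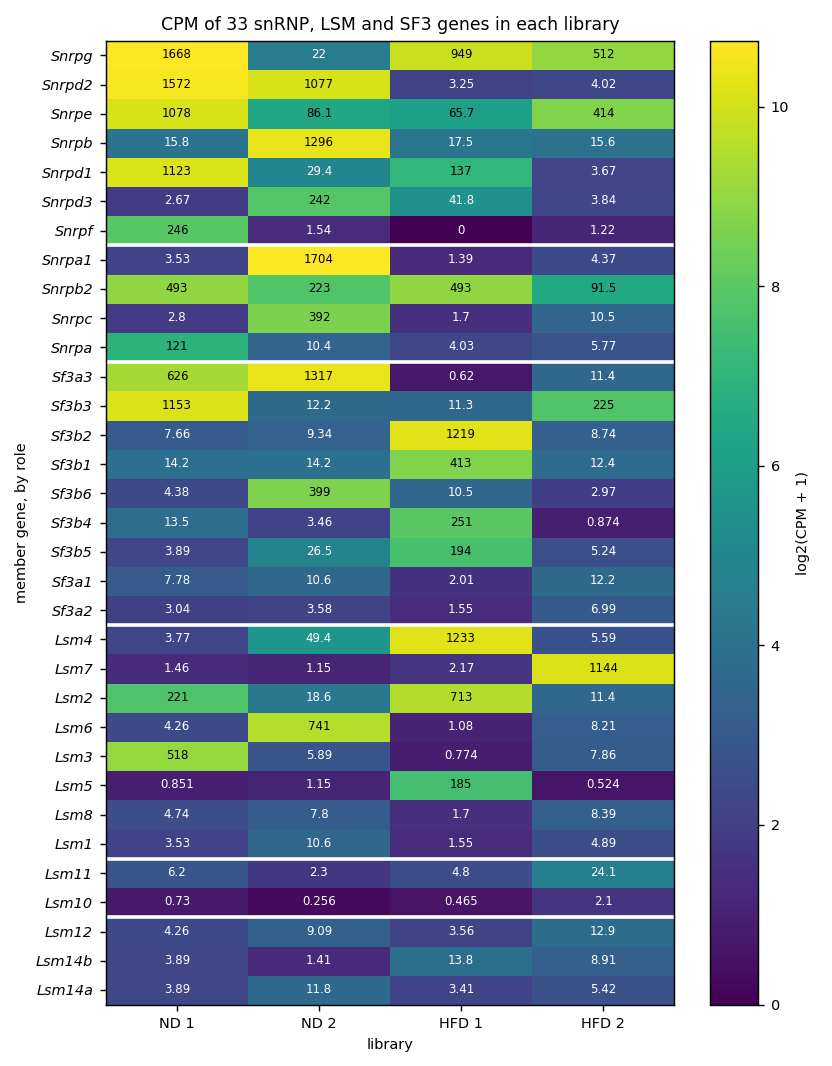
Heat map of the CPM of each of the 33 members (rows, grouped by role from the Sm ring at the top to LSM12 and LSM14 at the bottom) in the 4 libraries (columns), coloured by log2(CPM + 1) with the CPM printed in each cell. In 16 of the 33 rows a single cell reaches 50 CPM, in 9 rows none does, and only Snrpe and Snrpb2 exceed 50 CPM in every column.

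The same limits were applied to all 21897 protein-coding genes as a background. Among the 3359 of them that reached 50 CPM anywhere, 70.8% did so in exactly 1 library and 2.92% in all 4, against 66.7% and 8.33% of the 24 members. At limits of 20 and 100 CPM, 14 and 16 members were found in exactly 1 library. The members were more often above background than other genes, with 26, 28, 19 and 15 of 33 in ND replicates 1 and 2 and HFD replicates 1 and 2, or 78.8%, 84.8%, 57.6% and 45.5%. The corresponding shares of all protein-coding genes were 24.9%, 22.1%, 13.3% and 15.2%. All 33 members were above background in at least 1 library, and 7 were so in all 4 libraries, namely Snrpb, Snrpe, Snrpg, Snrpb2, Lsm2, Lsm4 and Lsm12. The limit of background was highest in HFD replicate 2, where the count of 15 became 23 at the 95th percentile of the olfactory receptor genes.

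**Figure D2:**
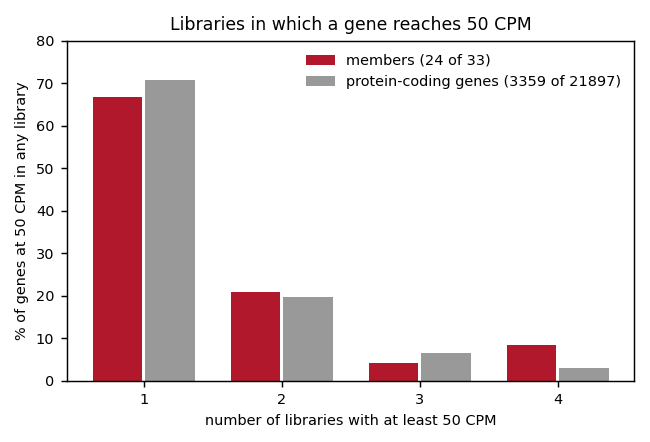
Bar chart of the number of libraries in which a gene reached 50 CPM (x axis) against the share of genes in percent (y axis), for the 24 members and the 3359 protein-coding genes that reached it anywhere. In both sets the bar for a single library is the highest, at 66.7% and 70.8%.

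The summed level of the 33 members was 8936 and 7740 CPM in ND replicates 1 and 2 and 5982 and 2597 CPM in HFD replicates 1 and 2. On this scale, by library totals, the HFD sums lay under both ND sums. The TMM factors of the edgeR test were not applied to the sums. They were 0.692 in HFD replicate 1 and 0.941 in ND replicate 2. Dividing by them would raise HFD replicate 1 relative to ND replicate 2, so that the order depends on the scaling. Stromal markers were highest in HFD replicate 2, the library with the lowest sum, and their part in the result was not tested. The gene that led each sum was a different one. It was Snrpg with 1668 CPM in ND replicate 1, Snrpa1 with 1704 CPM in ND replicate 2, Lsm4 with 1233 CPM in HFD replicate 1 and Lsm7 with 1144 CPM, or 44.1% of the sum, in HFD replicate 2. The median member had 6.20, 12.2, 4.80 and 8.21 CPM in the same order of libraries, so that the median did not separate the diets.

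The Sm ring is built from the products of Snrpb, Snrpd1, Snrpd2, Snrpd3, Snrpe, Snrpf and Snrpg, and these genes made up most of the ND replicate 1 sum. Together they had 5705 and 2753 CPM in ND replicates 1 and 2 and 1214 and 955 CPM in HFD replicates 1 and 2. Snrpd2, which encodes SmD2 and spans bases 19149722 to 19153542 of chromosome 7 (GRCm38), had 12924 and 8415 reads in ND replicates 1 and 2 and 21 and 23 reads in HFD replicates 1 and 2. These were 1572 and 1077 CPM in ND and 3.25 and 4.02 CPM in HFD, so that both ND pools were high and both HFD pools low. Its mean level was 1324 ± 350 CPM in ND and 3.64 ± 0.542 CPM in HFD (SD, n = 2 each), which is 364-fold lower in HFD. The log2 fold change was -8.51 (standard error, SE, 2.33, unadjusted p = 0.0117, edgeR adjusted p = 0.406) and ranged from -9.07 to -8.15 when a single library was dropped.

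None of the other ring genes reached 50 CPM in both ND pools and in neither HFD pool. Snrpg, which encodes SmG, had 13714 and 172 reads in ND and 6130 and 2933 reads in HFD, and was the first or second member per kilobase of exon in every library except ND replicate 2. The fitted log2 value of Snrpg was 0.04 (SE 2.37, edgeR adjusted p = 0.998), and it turned to -0.21 under scaling by library totals. Snrpe, which encodes SmE, had 1078 and 86.1 CPM in ND and 65.7 and 414 CPM in HFD, so that its lowest and its highest values belonged to different diets but the groups overlapped. The fitted log2 value of Snrpe was -1.63 (SE 1.97, edgeR adjusted p = 0.802), with a change of sign to 0.93 among the fits without a single library. Snrpb, which encodes SmB, was at 15.8 CPM in ND replicate 1, 17.5 CPM in HFD replicate 1 and 15.6 CPM in HFD replicate 2, while ND replicate 2 held 1296 CPM. All pools but ND replicate 2 were thus nearly equal for Snrpb, and its fitted log2 fold change of -5.29 (SE 2.64, edgeR adjusted p = 0.424) became 0.18 without ND replicate 2. Snrpd1 had 1123 and 29.4 CPM in ND and 137 and 3.67 CPM in HFD, and Snrpd3 had 2.67 and 242 CPM in ND and 41.8 and 3.84 CPM in HFD. Snrpf had 2021 and 12 reads in ND and 0 and 7 reads in HFD, where 0 reads allow a level of up to 0.465 CPM in HFD replicate 1. Both HFD values of Snrpf lay under both ND values, as for Snrpd2, but ND replicate 2 was at 1.54 CPM. The fitted log2 value of Snrpf was -8.10 (SE 3.53, unadjusted p = 0.0583, edgeR adjusted p = 0.406), and its size depends on the prior count because of the 0. It ranged from -12.67 to -7.30 when single libraries other than ND replicate 1 were dropped. Without ND replicate 1, which held 98.9% of its summed CPM, Snrpf did not pass the filter on low counts and had no fitted value. No library thus had all ring genes at a high level, although their proteins occur together in a ring.

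Among the proteins specific to U1 and U2, Snrpb2 was the most even of the 24 members that reached 50 CPM. It encodes the B″ protein, which binds the U2 RNA together with the A′ protein, the product of Snrpa1, and lies on chromosome 2 from 143063039 to 143072853. Snrpb2 had 493 and 223 CPM in ND and 493 and 91.5 CPM in HFD, and its highest library held 37.9% of the sum. The mean was 358 ± 190 CPM in ND and 293 ± 284 CPM in HFD (SD, n = 2 each), a difference within the spread of the replicates. HFD over ND gave a log2 fold change of 0.09 (SE 1.89, edgeR adjusted p = 0.994), and changed sign to -0.30 when libraries were scaled by their totals only.

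Its partner Snrpa1, on chromosome 7 from 66059003 to 66074587, had 29 and 13320 reads in ND replicates 1 and 2 and 9 and 25 reads in HFD. The 2 ND pools therefore differed 483-fold. On the log2 scale the fitted change was -8.51 (SE 3.33, unadjusted p = 0.0445, edgeR adjusted p = 0.406) and became -0.56 without ND replicate 2. Snrpa, the U1 A protein gene, had 121 and 10.4 CPM in ND and 4.03 and 5.77 CPM in HFD. Both HFD values lay under both ND values, and the log2 fold change of -3.75 (SE 1.46, unadjusted p = 0.0440) became -1.25 without ND replicate 1. Snrpc, the U1 C protein gene, had 2.80 and 392 CPM in ND and 1.70 and 10.5 CPM in HFD.

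**Figure D3:**
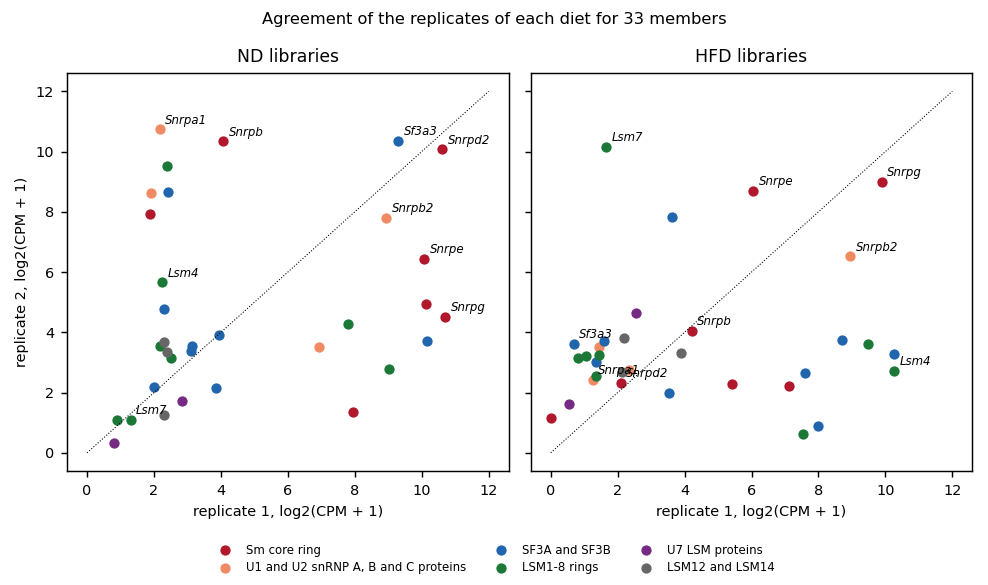
Scatter plots of replicate 2 against replicate 1 of each diet, both as log2(CPM + 1), for the 33 members coloured by role, with the dotted line marking equal levels. In ND, Snrpd2, Sf3a3 and Snrpb2 lie near the line while Snrpa1 and Snrpb lie far above it, and in HFD Lsm7 and Lsm4 lie on opposite sides of it.

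SF3A and SF3B had 1834 and 1796 CPM summed over their 9 genes in ND, and 2103 and 286 CPM in HFD. Sf3a3, which encodes the SF3A subunit of the U2 particle known as SF3a60, lies on chromosome 4 from 124714776 to 124732460. It had 5150 and 10293 reads in ND replicates 1 and 2 and 4 and 65 reads in HFD replicates 1 and 2, or 626 and 1317 CPM in ND and 0.620 and 11.4 CPM in HFD. As for Snrpd2, both ND pools were high and both HFD pools low. Sf3a3 was above background in HFD replicate 2 but not in HFD replicate 1. The mean was 972 ± 489 CPM in ND and 5.99 ± 7.59 CPM in HFD (SD, n = 2 each), 162-fold lower in HFD. The fitted log2 value was -7.88 (SE 2.59, unadjusted p = 0.0245, edgeR adjusted p = 0.406) and ranged from -10.11 to -7.17 when a single library was dropped.

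Of the other subunits, none reached 50 CPM in both ND pools. Sf3b1, the branch-point-binding scaffold of SF3B, had 14.2 CPM in both ND libraries, 413 CPM in HFD replicate 1 and 12.4 CPM in HFD replicate 2. Sf3b2 had 7.66 and 9.34 CPM in ND and 1219 and 8.74 CPM in HFD, and Sf3b4 had 13.5 and 3.46 CPM in ND and 251 and 0.874 CPM in HFD. Sf3b5 had 3.89 and 26.5 CPM in ND and 194 and 5.24 CPM in HFD. These subunits reached 50 CPM in HFD replicate 1 alone. Without that library the log2 fold changes of the 4 genes became negative, at -0.92, -0.69, -3.94 and -2.30. Sf3b3 had 1153 and 12.2 CPM in ND and 11.3 and 225 CPM in HFD, and Sf3b6 had 4.38 and 399 CPM in ND and 10.5 and 2.97 CPM in HFD. Sf3a1 and Sf3a2, the partners of Sf3a3, ranged from 1.55 to 12.2 CPM over the libraries.

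The LSM genes of the U6 and decapping rings summed to 759 and 835 CPM in ND and 2138 and 1191 CPM in HFD. This order, with both HFD sums above both ND sums, was the opposite of that of the Sm ring in CPM. It depends on the scaling by library totals, since the TMM factor was 1.51 in HFD replicate 2 and 0.941 in ND replicate 2. Most of the HFD sums came from Lsm4 and Lsm2 in replicate 1 and from Lsm7 in replicate 2. Lsm4 had 31 and 386 reads in ND and 7959 and 32 reads in HFD. Its log2 fold change of 4.98 (SE 3.18, edgeR adjusted p = 0.542) became -3.02 without HFD replicate 1. Lsm7, on chromosome 10 from 80852821 to 80855209, had 12 and 9 reads in ND and 14 and 6549 reads in HFD. Both of its HFD values lay above both ND values, but HFD replicate 1 was at 2.17 CPM against 1.46 CPM in ND replicate 1, and HFD replicate 2 was at 1144 CPM. The log2 fold change of Lsm7 was 8.16 (SE 2.95, unadjusted p = 0.0328, edgeR adjusted p = 0.406) and became 1.23 without HFD replicate 2.

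Lsm2, shared by both rings, had 221 and 18.6 CPM in ND and 713 and 11.4 CPM in HFD, so that replicates 1 were high in both diets. Its log2 fold change was 2.12 (SE 2.54, edgeR adjusted p = 0.801). Lsm5 had 7 and 9 reads in ND and 1197 and 3 reads in HFD. It did not pass the filter on low counts, since edgeR's filter asks for enough reads in 2 libraries, and it has no fitted value. Lsm3 was carried by ND replicate 1, with 518 CPM, and Lsm6 by ND replicate 2, with 741 CPM. Lsm1, which distinguishes the decapping ring, and Lsm8, which distinguishes the U6 ring, stayed low, at 1.55 to 10.6 CPM and 1.70 to 8.39 CPM.

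LSM14B is an mRNA-binding protein of oocytes. Lsm14b, on chromosome 2 from 180024987 to 180035465, had 32 and 11 reads in ND replicates 1 and 2 and 89 and 51 reads in HFD replicates 1 and 2. These were 3.89 and 1.41 CPM in ND and 13.8 and 8.91 CPM in HFD, so that both HFD pools were above both ND pools, with 3 of the 4 libraries above background. The mean was 2.65 ± 1.76 CPM in ND and 11.4 ± 3.45 CPM in HFD (SD, n = 2 each), or 4.28-fold higher in HFD. On the log2 scale the fitted change was 2.27 (SE 0.88, unadjusted p = 0.0424, edgeR adjusted p = 0.406) and ranged from 1.04 to 3.04 when a single library was dropped. The paralogue Lsm14a had 3.89 and 11.8 CPM in ND and 3.41 and 5.42 CPM in HFD, and its diets overlapped. Lsm12 had 4.26 and 9.09 CPM in ND and 3.56 and 12.9 CPM in HFD, with a fitted log2 fold change of -0.0049 (SE 0.65, edgeR adjusted p = 0.999). Of the U7 genes, Lsm11 had 6.20 and 2.30 CPM in ND and 4.80 and 24.1 CPM in HFD, and Lsm10, at 2 to 12 reads, did not pass the filter.

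The diets were compared over the whole table with edgeR's quasi-likelihood test, at an adjusted p under 0.05 and a fold change over 1.5. Of 19335 genes tested 0 were called, that is 0%, and of the 31 members tested 0 were called, with adjusted p from 0.406 to 0.999. limma-voom also called 0 genes. At an unadjusted p under 0.05, 4 members were lower in HFD (Snrpd2, Sf3a3, Snrpa and Snrpa1), or 12.9% against 6.41% of all genes, and 2 were higher (Lsm7 and Lsm14b), or 6.45% against 4.82% of all genes. Both HFD values lay under both ND values for 4 members (Snrpd2, Sf3a3, Snrpa and Snrpf), 12.9% against 13.4% of all genes, and over both ND values for Lsm7 and Lsm14b, 6.45% against 13.9%. The share of members with both HFD values lower was near that of all genes, and the share with both higher was under it. With 2 libraries against 2, an exact permutation test of a single gene cannot give p under 0.333.

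The median log2 fold change of the 31 members was -0.94, with 12 above 0 and 19 below, and that of all genes tested was 0.03. This median changed sign to 0.22 without ND replicate 1 and to 0.12 without ND replicate 2, and moved to -2.49 without HFD replicate 1. The fitted sign held for 13 members and changed for 18 when a single library was left out. The 13 include Snrpf, which had no fit without ND replicate 1. The same count over all genes tested is not given here, so it cannot be said whether the members differ from other genes. Scaling by library totals alone raised the median of all genes to 0.21, and that of the members was then -0.82.

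**Figure D4:**
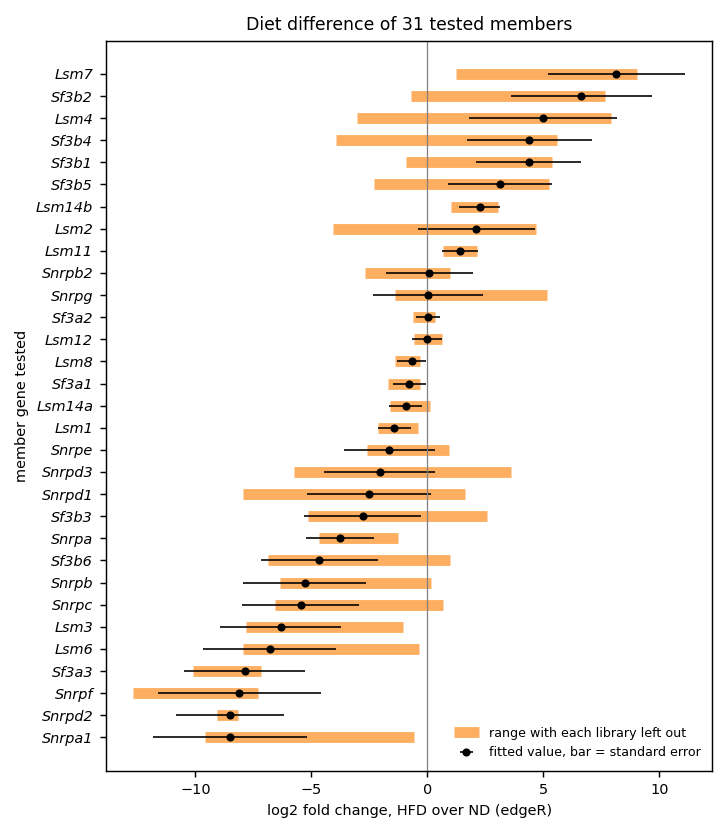
Fitted log2 fold changes of HFD over ND for the 31 members tested (points, with bars of 1 standard error), over the range obtained with each library left out in turn (orange). The ranges of Snrpd2 and Sf3a3 stay far below 0, whereas those of 18 members cross it. The range of Snrpf also stays below 0 but lacks a fit without ND replicate 1, the library that carried this gene.

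DESeq2, which the methods of the study name, gave an adjusted p to 4658 genes, 24 of them members. It called 10 members lower in HFD, 41.7% against 25.5% of all genes given an adjusted p, and 6 members higher, 25.0% against 29.7%. Of these 16 members, 14 reached 50 CPM in exactly 1 pool, and the other two were Snrpd2 and Sf3a3. The call thus differed between the tools for 15 members, since edgeR did not test Lsm5.

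The gap between pools of the same diet was compared with the gap between diets for the 24 members that reached 50 CPM. On log2(CPM + 1), the median absolute gap was 3.57 between the ND pools, or 11.9-fold, and 2.79 between the HFD pools, or 6.90-fold. Between single pools of different diets the median gap was 16.8-fold for ND replicate 1 and HFD replicate 1, 30.8-fold for ND replicate 2 and HFD replicate 1, 3.13-fold for ND replicate 1 and HFD replicate 2, and 7.06-fold for ND replicate 2 and HFD replicate 2. The gaps across diets thus spanned those within a diet, larger with HFD replicate 1 and smaller with HFD replicate 2 than the gap between the ND pools. For the 3359 protein-coding genes chosen by the same limit, the median gaps were 3.60-fold between the ND pools, 11.8-fold between the HFD pools and 2.74-fold to 22.9-fold across diets. Between the ND replicates 15 of 33 members differed 10-fold or more, and between the HFD replicates 13 of the 32 members with reads in both. These counts include members with few reads, and the same counts over all protein-coding genes are not given here.

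Near-identical copies in the genome can take or give reads of these short genes. At 90% identity over 50% of the coding sequence, 14 members had 43 copies in the GENCODE transcripts, 39 of them processed pseudogenes, and 5 copies held over 100 reads in all. Gm13092, a copy of Snrpf, had 377 reads in ND replicate 1 and 2, 2 and 0 in the other libraries, and the reads of Snrpf lay in the same library. Gm8186, identical to Snrpg over its coding sequence, had 112, 3, 85 and 22 reads in ND replicates 1 and 2 and HFD replicates 1 and 2. Gm8162, a copy of Snrpb2, had 163 reads in ND replicate 1 and 4 or fewer elsewhere. Snrpert, a copy of Snrpe, had 77 reads in ND replicate 1 and 25 or fewer elsewhere. Zfp410, a protein-coding gene with a transcript that matches Lsm6 at 92.0% identity, had 2733 reads in HFD replicate 1, where Lsm6 had 7. Reads of a gene and its near-identical copy may have been split in the counting, so that the levels of these genes are uncertain. Snrpd2 had 2 copies with 7 or fewer reads per library. Adding the reads of all copies to their members gave 26, 28, 21 and 17 members above background, against 26, 28, 19 and 15. The added reads include all those of the protein-coding genes Zfp410 and Vmn2r110, which may be their own. Those added to Lsm6 in HFD replicate 1 were mostly reads of Zfp410. The strand setting of the counting is not given in the sources used here. Snrpa overlaps BC024978 on the opposite strand, which had 3566 reads in HFD replicate 1, where Snrpa had 26.

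The 11 members with CCGGAAG in their promoter window did not share a pattern over the libraries. Sf3a3 was high in both ND pools, Snrpe and Snrpb2 in all pools, Sf3b2 and Lsm5 in HFD replicate 1, and Snrpc and Sf3b6 in ND replicate 2, whereas Sf3a1 and Sf3a2 were low throughout. Snrpd2, whose levels resembled those of Sf3a3, lacked the letters in its window.

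The genes that act with the members were listed from their known roles, as 84 genes of the U1 and U2 particles, the tri-snRNP, the minor spliceosome, snRNP assembly, the PRP19 complex and step ATPases, mRNA decapping, and histone mRNA processing. Of these, 81 were tested, 0 were called by edgeR, and at an unadjusted p under 0.05 10 were higher and 4 lower in HFD. These were 12.3% and 4.94% of the partners tested, against 4.82% and 6.41% of all genes. The median log2 fold change of the partners was 0.43. Between 29 and 49 of the 84 were above background in a library, 5 in all 4 and 13 in none. The snRNP assembly genes, which load the Sm ring onto RNA, had 3 of 10 tested genes lower and 0 higher at that limit, and 0 to 6 of 11 above background. With so few genes in each list, these counts are given as a description beside the same 6.41% lower and 4.82% higher over all genes. The minor spliceosome list had 2 of 6 higher, the PRP19 and ATPase list 2 of 13 higher, the decapping list 2 of 13 higher and the histone list 2 of 6 higher, each with 0 lower. The tri-snRNP list had 2 of 17 higher and 1 lower, and the U1 and U2 list had 0 of 16 in either direction.

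Among the partners whose diets did not overlap, the smallest p belonged to Gemin7, Txnl4a and Prmt5 among the lower genes and to Ybx2, Sart1 and Pdcd7 among the higher ones. Gemin7, a subunit of the SMN complex that assembles Sm rings, had 78 and 66 reads in ND and 9 and 16 reads in HFD. Its log2 fold change was -2.23 (SE 0.43, unadjusted p = 0.00189, edgeR adjusted p = 0.406), between -2.40 and -2.17 with each library left out. Prmt5, the methyltransferase that modifies Sm proteins before ring assembly, had 6.08 and 7.55 CPM in ND and 0.929 and 4.54 CPM in HFD, all low levels. Txnl4a, a U5 protein gene, had 8170 and 31 reads in ND and 2 and 12 reads in HFD, and the fitted value of -9.01 became -2.25 without ND replicate 1.

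Sart1, a tri-snRNP protein gene, was even within each diet, with 46 and 37 reads in ND and 4245 and 4081 reads in HFD. These were 5.59 and 4.73 CPM in ND and 657 and 713 CPM in HFD, the opposite order to Snrpd2. The fitted difference on the log2 scale was 7.07 (SE 2.04, unadjusted p = 0.0149, edgeR adjusted p = 0.406) and ranged from 6.38 to 7.49 when a single library was dropped. Ybx2, a germ cell mRNA-binding protein gene, had 2.31 and 2.94 CPM in ND and 55.0 and 547 CPM in HFD, and Pdcd7, a minor spliceosome gene, had 3.04 and 3.97 CPM in ND and 62.3 and 1310 CPM in HFD. Without HFD replicate 2 the log2 fold change of Pdcd7 moved from 7.06 to 4.64.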

How the data were processed

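Transcripts were measured in 2 ND and 2 HFD samples of E18.5 oocytes. The authors used Trim Galore for trimming, HISAT2 with mm10 for alignment and featureCounts for the raw counts per gene that they deposited. The annotation release and the handling of multi-mapping reads are not given in the sources used here. Symbols, coordinates and union exon lengths were taken from GENCODE M21 (GRCm38), which lacked 260 of 55401 identifiers.

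CPM was computed as counts over the library total. Counts were tested in R 4.3.3 with edgeR 4.0.16 (TMM, factors 0.692 to 1.51, filterByExpr, glmQLFit with legacy FALSE), adjusted by Benjamini-Hochberg over 19335 genes. Standard errors (SE) were obtained by dividing the size of each log2 fold change by √F. DESeq2 1.42.0, limma 3.58.1 (voom), other normalizations and filters, the legacy fit, a replicate block and each library left out were alternatives. The code was tested on simulated data.

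Members and lists were chosen with earlier results of these data known. Members named with fitted values, where tested, were the 3 highest per kilobase in each library, those above background in all 4 libraries, those whose diets did not overlap with an unadjusted p under 0.05, and Snrpb and Lsm14b. Partners were the 3 smallest p in each direction among those whose diets did not overlap. Values of further members were added after they were seen. Protein sequences were not used here.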

Additional observations from a re-analysis of the deposited data

How the results depend on the processing

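The numbers of genes called moved from 0 to 2569 with DESeq2 on all genes (1382 higher, 1187 lower) and to 34 with the legacy quasi-likelihood fit. The members called moved from 0 to 16 with DESeq2, and were 0 under every other alternative, including no fold change minimum. The members with an unadjusted p under 0.05 numbered 6, and 3 with at least 10 counts in every library, 16 with DESeq2, 2 with limma-voom, 2 with the legacy fit, and 1 to 8 with each library left out. The partners with an unadjusted p under 0.05 numbered 14, and 26 with DESeq2, 3 with limma-voom, 2 with the legacy fit, and 6 to 27 with each library left out. With the replicate block these counts were 3 members and 6 partners, and the block changed no call. The share of all genes fitted that lay under this limit moved as well. It was 11.2% in the main fit and 13.4% with at least 10 counts in every library. It was 6.49% with DESeq2, 3.88% with limma-voom, 6.23% with the legacy fit and 7.66% with the replicate block. With limma-voom, the legacy fit and the replicate block, the member and partner counts fell as this share fell. With DESeq2, which fitted 49005 genes, both counts rose while the share fell. With at least 10 counts in every library, the member count fell, with 24 members fitted, while the share rose. The moves of the counts therefore did not always follow that of all genes. Libraries with the same replicate number did not deviate together (correlation of deviations 0.01 over 19335 genes), so that the numbers were not taken as pairs. The median log2 fold change of the members ranged from -2.49 to 0.22 when single libraries were dropped. The cause of these shifts was not tested.

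The members above background became 11, 10, 11 and 5 in ND replicates 1 and 2 and HFD replicates 1 and 2 at a limit of 50 CPM. They became 14 in ND replicate 1 at 10 CPM and 23 in HFD replicate 2 at the 95th percentile. Limits of 20 and 100 CPM and the adding of copies were chosen after the data were seen.

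Signs of genes near 0 turned. With library totals only, the log2 fold change became 0.31 for Lsm12, -0.30 for Snrpb2 and -0.21 for Snrpg. Without a filter it became -0.00645 for Snrpb2 and -0.0619 for Snrpg, and with at least 10 counts in every library -0.11 and -0.15. It became -0.56 for Snrpb2 with limma-voom and 0.0048 for Lsm12 with the legacy fit. With the replicate block it was 0.0647 for Lsm12 and -0.70 for Snrpb2. With each library left out in turn, it ranged from -0.57 to 0.64 for Lsm12, -4.08 to 4.68 for Lsm2, -3.02 to 7.93 for Lsm4, -6.33 to 0.18 for Snrpb, -2.67 to 0.98 for Snrpb2, -2.61 to 0.93 for Snrpe and -1.39 to 5.14 for Snrpg. Apart from DESeq2, no alternative gave a named gene an adjusted p under 0.214. Depth limits Lsm10 in every library and Lsm5 outside HFD replicate 1, whose counts were near the floor of 3.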
